A study of Mus musculus with 8 samples.

Results

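Replication-independent histone variants are the histones that a cell can make and place in chromatin outside DNA synthesis. Their genes were examined in mouse acute myeloid leukemia (AML) driven by MLL-AF9, a fusion of the KMT2A and MLLT3 proteins. The genes were chosen by class and by name and comprise H1f0, H1fx, H2afj, H2afv, H2afx, H2afy, H2afz, H3f3a, H3f3b and Cenpa. The count table of 12823 rows held 10 of the 10 names, and 10 of them passed the filter on low counts that left 12494 genes to be tested.

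RNA-seq read counts came from 4 libraries of newly generated leukemia (new AML) and 4 libraries of leukemia after serial transplantation (aggressive AML). For new AML, mouse bone marrow progenitors were transduced with MLL-AF9 and GFP and put into sublethally irradiated recipients, and GFP+ cells were taken from the mice that fell ill. For aggressive AML, remaining GFP+ cells are described as having gone through 5 rounds of transplantation into non-irradiated mice. All cells of both groups therefore carried the fusion gene and GFP, were grown in C57BL/6 mice, and were sorted as GFP+ from bone marrow before RNA extraction. The mice of this RNA-seq are described as male. The fusion was expressed from a virus, so these cells model a leukemia that arises from 1 introduced gene. Replicates are labelled as biological, but both groups are described as stages of 1 leukemia, and p-values measure the spread between these libraries only. No batch is given in the labels, and a batch that follows the group cannot be told apart from the group.

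Canonical histones are made in S phase from clustered genes whose mRNAs end in a stem-loop in place of a poly(A) tail. Variant histones come from single genes, mostly with polyadenylated mRNAs, and replace canonical histones at particular sites. H3.3 is deposited at active genes by HIRA and at repeats by DAXX and ATRX, H2A.Z is exchanged into promoter nucleosomes by SRCAP and EP400, H2AX is phosphorylated around DNA breaks, macroH2A marks repressed chromatin, CENP-A defines the centromere, and the linker histones H1.0 and H1X bind DNA between nucleosomes. H1.0 is known for accumulating in cells that have left the cell cycle.

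The pair of genes that make H3.3 show why their reads can be counted apart. The coding sequences of H3f3a (H3f3a-205) and H3f3b (H3f3b-201) in GENCODE M21, each of 411 bases, differ at 95 bases (76.9% identity) and at 0 of 137 codons after translation. The first 120 bases are shown because they hold 24 of those differences, marked by capitals.
H3f3a: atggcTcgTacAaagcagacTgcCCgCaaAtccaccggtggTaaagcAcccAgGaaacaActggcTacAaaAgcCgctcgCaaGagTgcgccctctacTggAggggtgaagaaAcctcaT
H3f3b: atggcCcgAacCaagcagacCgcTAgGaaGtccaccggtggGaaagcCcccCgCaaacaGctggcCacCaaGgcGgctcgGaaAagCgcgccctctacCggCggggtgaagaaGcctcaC
The longest run without a difference in these coding sequences is 23 bases. H3f3a is not as separate from H3f3c, an intronless copy of it in the table, from which it differs at 4 of 411 coding bases with an identical run of 267 bases. Reads of H3f3a and H3f3c can be exchanged in counting, and both values are uncertain for that reason.

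Among the 10 genes, the letters of the stem-loop that ends canonical histone mRNAs were found in H2afx alone. The histone stem-loop pattern, paired bases around a short loop, was searched on the transcript strand in GENCODE M21 transcripts. It lay at bases 547 to 562 of H2afx-201, which is 1384 bases long, and is shown in capitals with its flanks because H2afx can make an mRNA of either kind.
H2afx: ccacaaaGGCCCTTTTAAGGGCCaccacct
The pattern was present in 62 of 11609 tested genes with a transcript (0.534%) and in 40 of 60 canonical histone genes (66.7%).

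Promoters of the 4 genes that differed between the groups are given, from 250 bases before to 50 bases after the RefSeq start (GRCm38.p6, the build the reads were aligned to). Capitals mark the CCAAT box and the CHR element, TTTGAA, of cell cycle genes on either strand. H3f3b, chr11:116024455-116024754, minus strand, has 4 CCAAT boxes, a TATAAA and 2 matches to TGACGCA. This window lies inside the RefSeq span of the gene, 116021961 to 116026039, so the start used is not the outer end of that span. Cenpa, chr5:30666636-30666935, plus strand, has 2 CCAAT boxes and a CHR element. H2afz, chr3:137864237-137864536, plus strand, has 3 CCAAT boxes, and H1f0, chr15:79027962-79028261, plus strand, has 0 matches to either motif.
H3f3b: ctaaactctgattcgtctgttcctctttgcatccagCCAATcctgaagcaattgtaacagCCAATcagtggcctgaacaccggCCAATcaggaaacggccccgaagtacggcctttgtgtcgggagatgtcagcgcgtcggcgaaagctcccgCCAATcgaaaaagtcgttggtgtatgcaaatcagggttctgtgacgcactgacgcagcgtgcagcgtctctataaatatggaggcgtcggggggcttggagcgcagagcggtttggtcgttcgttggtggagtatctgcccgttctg
Cenpa: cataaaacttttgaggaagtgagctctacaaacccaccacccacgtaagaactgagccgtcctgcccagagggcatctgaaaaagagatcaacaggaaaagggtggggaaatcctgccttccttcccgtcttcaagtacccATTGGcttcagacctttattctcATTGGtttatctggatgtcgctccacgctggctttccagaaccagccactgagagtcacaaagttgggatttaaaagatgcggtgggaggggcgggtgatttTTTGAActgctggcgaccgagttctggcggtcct
H2afz: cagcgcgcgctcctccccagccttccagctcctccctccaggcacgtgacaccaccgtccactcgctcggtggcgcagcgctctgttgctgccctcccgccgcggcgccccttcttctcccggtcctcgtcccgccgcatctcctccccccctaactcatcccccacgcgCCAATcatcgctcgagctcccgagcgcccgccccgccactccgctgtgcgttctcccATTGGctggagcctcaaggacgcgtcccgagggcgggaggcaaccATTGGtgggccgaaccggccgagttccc
H1f0: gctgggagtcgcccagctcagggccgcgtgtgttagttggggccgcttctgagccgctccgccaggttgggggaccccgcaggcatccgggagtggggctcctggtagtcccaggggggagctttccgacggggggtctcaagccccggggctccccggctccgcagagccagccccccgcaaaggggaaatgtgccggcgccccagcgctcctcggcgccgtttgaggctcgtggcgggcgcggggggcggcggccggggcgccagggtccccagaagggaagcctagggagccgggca
Of 32851 RefSeq promoters of this length, 37.4% held a CCAAT box on either strand, 1.06% held at least 4, 17.9% held TTTGAA, 13.6% held TATAAA and 2.12% held TGACGCA. Promoters were found for 9 of the 10 genes. H2afv had 4 CCAAT boxes and a CHR element, and H2afj had 3 CCAAT boxes. Neither gene was called between the groups, though H2afj had an unadjusted edgeR p of 0.0129. The part of these motifs in the group differences was not tested.

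Libraries held 7805544 to 9697777 counts, and 1 count was worth 0.103 to 0.128 CPM before the TMM factor was applied. CPM values given here are read counts scaled by the total of their library and by its TMM factor. The 9 markers of the labelled leukemia cells summed to 4874 to 5440 CPM in new AML and 4269 to 5899 CPM in aggressive AML, with 3 called higher (Meis1, Elane and Kit) and 2 lower. Of the lower ones, Csf1r went from 137 to 202 CPM in new AML to 42.3 to 56.7 CPM in aggressive AML, and Itgam from 393 to 579 to 299 to 341 CPM. Summed, 10 neutrophil markers reached 326 to 494 CPM in new AML but 166 to 219 CPM in aggressive AML, with 8 of the 10 called lower. Summed erythroid markers (9 of 10 in the table) were 29.5 to 105.8 against 10.01 to 54.6 CPM, and summed macrophage markers (5 of 8) were 82.9 to 145.5 against 55.95 to 90.8 CPM. Of the T cell markers, Cd3d, Cd3e, Cd3g, Cd4, Cd8a and Trac have no row, and Bcl11b was called higher (3.90 to 6.30 against 2.46 to 17.4 CPM, the lowest value in aggressive AML replicate 3). Summed B cell markers (4 of 6, 1 called lower) were 40.2 to 45.4 against 30.6 to 33.97 CPM, summed NK cell markers (2 of 6, 1 called higher) 14.98 to 27.7 against 25.8 to 33.01 CPM, and the megakaryocyte marker in the table, 1 of 5, 4.68 to 8.58 against 2.17 to 5.44 CPM. The Y-linked genes Ddx3y, Eif2s3y, Kdm5d and Uty had 237 to 882 counts in each new AML library and 0 counts in each aggressive AML library. Yet both groups are described as 1 leukemia. The sex of the donors of the transduced bone marrow is not given, and the mice described as male may be the recipients alone. These Y-linked genes alone cannot separate loss of the Y chromosome during transplantation from a different origin of the aggressive cells, and no other genes were examined for this. Each group difference may therefore be one between stages or between cells of different origin. The part of these differences in the results on histone variants was not tested, and in bulk RNA fewer cells of a type and less RNA per cell cannot be told apart.

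Of the 10 variant histone genes, 4 were higher in aggressive AML, 0 were lower and 6 did not pass the test. H1f0 was 1.68-fold, H3f3b 1.40-fold, Cenpa 1.26-fold and H2afz 1.23-fold higher. Genes are called where the edgeR quasi-likelihood test gave a p under 0.05 after Benjamini-Hochberg adjustment over all tested genes. This threshold was passed by 18.4% of the 12494 tested genes, 8.15% of them higher in aggressive AML and 10.2% lower. The median log2 fold change was 0.17 over the 10 genes, with a range of -0.18 to 0.75, and 0.0004 over all tested genes. No overlap between the groups was seen for H1f0, H2afj, H2afy and Cenpa, 3 of them higher and 1 lower in aggressive AML, where 21.8% of all tested genes had no overlap, 9.76% of them higher and 12.0% lower. At an unadjusted p under 0.05 there were 6 genes, with H2afj higher and H2afy lower as the additions, beside 32.6% of all tested genes. DESeq2 called Cenpa, H2afj, H2afz and H3f3b higher and H2afy lower, and did not call H1f0.

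**Figure D1:**
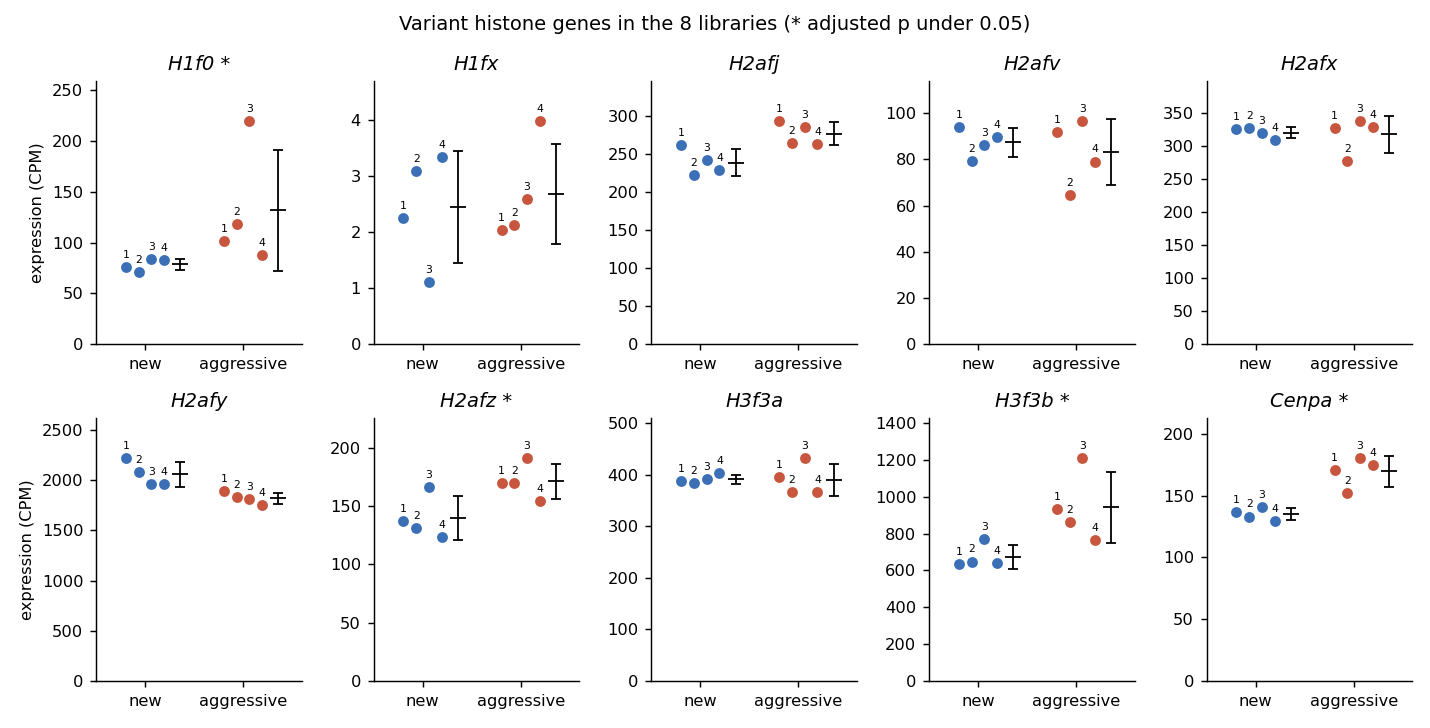
Expression in CPM (vertical axes, each from 0) of each of the 10 variant histone genes in 4 new AML (blue) and 4 aggressive AML (red) libraries. Points are libraries with their replicate number, bars are the mean and SD of 4 libraries, and an asterisk marks an adjusted p under 0.05. Cenpa lay at 129.4 to 140.9 CPM in new AML and at 152.1 to 180.7 CPM in aggressive AML, while H3f3a kept to 365.9 to 432.8 CPM in both groups.

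Of the genes that encode H3.3, H3f3b was called and H3f3a was not. H3f3b (chromosome 11, 116021961 to 116026039, GRCm38.p6) measured 636.9, 648.6, 771.4 and 639.6 CPM in new AML replicates 1 to 4 and 931.4, 863.4, 1211.6 and 762.8 CPM in aggressive AML replicates 1 to 4. New AML replicate 3 was the highest of its group and lay just above aggressive AML replicate 4, the lowest of the other, so the groups overlapped by that pair of libraries. The means were 674.1 ± 65.1 and 942.3 ± 192.4 CPM (SD, n = 4), and the log2 fold change was 0.48 (SE 0.12, 95% interval 0.23 to 0.73, edgeR adjusted p = 0.00986). Without aggressive AML replicate 3, the highest library, the log2 fold change was 0.34 and the call held.

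H3f3a (chromosome 1, 180802560 to 180813605), which encodes the same protein, measured 388.0, 383.3, 391.0 and 403.8 CPM in new AML and 395.5, 367.4, 432.8 and 365.9 CPM in aggressive AML. The aggressive AML libraries lay on both sides of the new AML libraries. The log2 fold change had a 95% interval of -0.16 to 0.15 (edgeR adjusted p = 0.975), and its sign turned with the scaling. H3f3c, the copy that can share its reads, measured 159.7 ± 12.4 and 153.6 ± 12.3 CPM (adjusted p = 0.680).

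The ratio of H3f3b to H3f3a within a library does not depend on scaling between libraries. On the log2 scale new AML gave 0.71, 0.76, 0.98 and 0.66 and aggressive AML 1.23, 1.23, 1.48 and 1.06, without overlap. The means were 0.78 ± 0.14 and 1.25 ± 0.18 (SD, n = 4), a difference of 0.47. The exact permutation test gave a two-sided p of 0.0286, the lowest possible with 70 choices of 4 libraries. Adjusted over the 4 ratios examined, this p was 0.0571 and missed the threshold. Without new AML replicate 4 or aggressive AML replicate 3 the unadjusted p was 0.0571 as well, though the groups still did not overlap. With a library left out there are fewer than 70 choices, so these p-values are not comparable with the one above. The summed H3.3 level, H3f3a and H3f3b together, went from 1065.6 ± 65.0 to 1332.7 ± 223.0 CPM. Of these counts H3f3b supplied 63.2 ± 2.22% in the new and 70.4 ± 2.50% in the aggressive libraries (SD, n = 4). Per kilobase of mean transcript length its share was 51.0 ± 2.41% and 59.1 ± 2.92%.

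**Figure D2:**
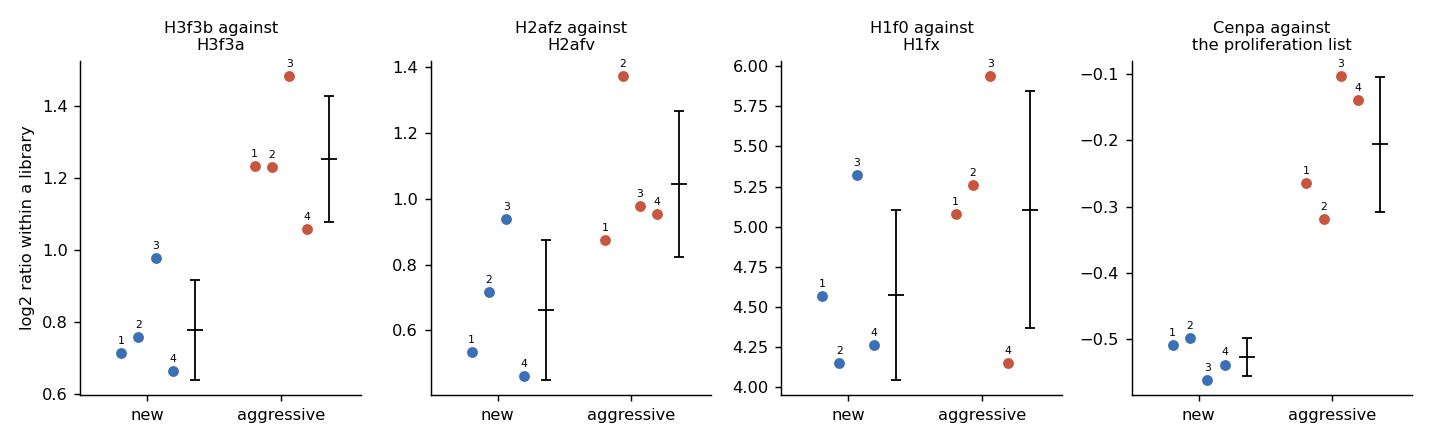
Log2 ratio within a library (vertical axes, which do not start at 0) for H3f3b against H3f3a, H2afz against H2afv, H1f0 against H1fx, and Cenpa against the mean of the proliferation list. Points are libraries with their replicate number and bars are the mean and SD of 4 libraries. New AML libraries (blue) had H3f3b to H3f3a ratios of 0.66 to 0.98 and aggressive AML libraries (red) of 1.06 to 1.48, and the ratio of Cenpa to the list averaged -0.53 and -0.21. Neither difference passed the threshold after adjustment over the 4 ratios (adjusted permutation p = 0.0571 for both).

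Of 9 tested genes listed for the deposition of H3.3, 1 was higher, 1 was lower and 7 did not pass the test, a share called of 22.2% beside 18.4% of all genes, with a median log2 fold change of -0.10. Hira, the chaperone at active genes, rose from 85.9 ± 8.96 to 104.5 ± 5.59 CPM (log2 fold change 0.28, adjusted p = 0.0368). Ubn1, its partner in the same complex, fell from 179.1 ± 13.4 to 148.5 ± 12.4 CPM (log2 fold change -0.27, adjusted p = 0.0329). Daxx measured 60.4 ± 8.77 and 50.7 ± 3.88 CPM (adjusted p = 0.120), and Atrx 302.3 ± 36.96 and 282.4 ± 23.3 CPM (adjusted p = 0.490). The calls of Hira and Ubn1 were each lost in 5 of the 8 fits that left out 1 library, and the count of the list was 0 without new AML replicate 2 or 4 and without aggressive AML replicate 2 or 3.

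Cenpa (chromosome 5, 30666877 to 30674837), which encodes the histone H3 variant of the centromere, measured 137.0, 133.2, 140.9 and 129.4 CPM in new AML and 171.1, 152.1, 180.7 and 174.7 CPM in aggressive AML. All 4 aggressive AML libraries lay above the highest new AML library. The means were 135.1 ± 4.93 and 169.7 ± 12.3 CPM, a log2 fold change of 0.33 (SE 0.08, 95% interval 0.17 to 0.49, edgeR adjusted p = 0.00719). The call held in 16 of 16 alternative settings, with log2 fold changes of 0.30 to 0.38.

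Cenpa mRNA is made late in the cell cycle, so its level was set beside 29 other cell cycle genes. The list holds genes of DNA synthesis as well as of mitosis, so its mean is not matched to that timing. In this proliferation list 0 genes were higher and 1 was lower, a share of 3.45% beside 18.4% of all genes. The median log2 fold change was 0.04, with 17 genes above 0 and 12 below. The gene called was Mki67, the source of the proliferation marker Ki-67, which fell from 851.6 ± 46.1 to 697.5 ± 77.7 CPM (adjusted p = 0.0247). This call was lost without new AML replicate 2 or 4 and without aggressive AML replicate 2 or 3. Of listed genes not called, Ccnb1 and Ccnb2 had log2 fold changes of 0.21 and 0.20, and Top2a and Bub1b of -0.24 and -0.14. The log2 ratio of Cenpa to the mean of the list had values of -0.51, -0.50, -0.56 and -0.54 in new AML against -0.26, -0.32, -0.10 and -0.14 in aggressive AML. The groups did not overlap, and the difference of 0.32 had a two-sided exact permutation p of 0.0286, or 0.0571 adjusted over the 4 ratios. With the centromere genes as reference the difference was 0.25.

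Among 21 tested genes that load CENP-A or bind it at the centromere (22 listed), 2 were higher and 0 lower. This is a share of 9.52% beside 18.4% of all genes, and the median log2 fold change was 0.04. Cenpw, a histone-fold protein of the inner kinetochore, rose from 26.4 ± 4.93 to 40.0 ± 5.59 CPM (log2 fold change 0.60, adjusted p = 0.00745). Cenph, another inner kinetochore subunit, rose from 33.2 ± 2.61 to 42.1 ± 1.26 CPM (log2 fold change 0.34, adjusted p = 0.0228). Hjurp, the chaperone that carries CENP-A to the centromere, measured 295.6 ± 27.2 and 306.0 ± 28.7 CPM (adjusted p = 0.725). Without single libraries this count was 1 to 3, and it was 1 without new AML replicate 2 or 4.

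H1f0 (chromosome 15, 79028212 to 79030504) is the gene of linker histone H1.0. Of the called genes it had the largest log2 fold change and, in aggressive AML, the widest spread relative to its mean. It measured 76.1, 71.5, 83.8 and 82.4 CPM in new AML and 101.8, 118.4, 219.4 and 87.4 CPM in aggressive AML. All aggressive AML libraries lay above the new AML range, aggressive AML replicate 3 by far the most and replicate 4 by little. The means were 78.4 ± 5.72 and 131.8 ± 59.8 CPM, a log2 fold change of 0.75 (SE 0.21, 95% interval 0.30 to 1.19, edgeR adjusted p = 0.0217). Without aggressive AML replicate 3 the log2 fold change was 0.39 (adjusted p = 0.0153). The call was lost in DESeq2 (adjusted p = 0.0640) and without new AML replicate 1 (0.0560) or 2 (0.0639), over a range of 0.00545 to 0.0640 in all settings.

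H1fx (chromosome 6, 87980421 to 87981482), listed today as H1f10 and the gene of linker histone H1X, had 10 to 35 counts per library. It measured 2.26, 3.09, 1.12 and 3.34 CPM in new AML and 2.05, 2.12, 2.59 and 3.98 CPM in aggressive AML, with overlap. The 95% interval of the log2 fold change, -0.62 to 0.90, is wide at this depth (edgeR adjusted p = 0.823). The log2 ratio of H1f0 to H1fx averaged 4.57 ± 0.53 in the new and 5.11 ± 0.74 in the aggressive libraries (two-sided exact permutation p = 0.343). It was taken on CPM + 1, which at the 1.12 to 3.98 CPM of H1fx makes it smaller than the ratio of the levels.

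H2afz (chromosome 3, 137864487 to 137866922) and H2afv (chromosome 11, 6427226 to 6444511), listed today as H2az1 and H2az2, encode the H2A.Z proteins. Their coding sequences of 387 bases differ at 81 bases and, after translation, at 3 of 129 codons. H2afz measured 137.1, 130.8, 166.4 and 123.7 CPM in new AML and 169.5, 169.4, 191.3 and 154.2 CPM in aggressive AML. New AML replicate 3 lay above aggressive AML replicate 4, and the other libraries were separate. The means were 139.5 ± 18.8 and 171.1 ± 15.3 CPM, a log2 fold change of 0.29 (SE 0.10, 95% interval 0.09 to 0.50, edgeR adjusted p = 0.0469). This call rests near the threshold and was kept in 2 of the 8 fits that left out 1 library, without new AML replicate 3 and without aggressive AML replicate 4, while the adjusted p was highest, at 0.137, without new AML replicate 4.

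H2afv measured 94.2, 79.2, 86.3 and 89.6 CPM in new AML and 91.9, 64.8, 96.6 and 79.1 CPM in aggressive AML. Its aggressive AML values enclosed the new AML range, with a 95% interval of the log2 fold change of -0.31 to 0.16 (edgeR adjusted p = 0.691). The log2 ratio of H2afz to H2afv averaged 0.66 ± 0.21 in the new and 1.05 ± 0.22 in the aggressive libraries, with overlap, and its difference of 0.38 did not pass the exact permutation test (two-sided p = 0.0571, 0.0762 adjusted over the 4 ratios). Of the 29 genes listed for H2A.Z exchange, the subunits of the SRCAP, TIP60 and INO80 complexes among them, 0 were higher and 1 was lower. This is a share of 3.45% beside 18.4% of all genes, and the median log2 fold change was 0.08. Ino80b, a subunit of the INO80 remodeler, fell from 48.9 to 38.4 CPM (log2 fold change -0.35, adjusted p = 0.0180). Srcap measured 232.1 ± 15.5 and 205.3 ± 34.1 CPM, and Ep400 293.4 ± 18.3 and 281.9 ± 17.4 CPM, with adjusted p-values of 0.254 and 0.626. Without single libraries this count was 0 to 2, and it was 0 without new AML replicate 1 or 2 and 2 without new AML replicate 4 or aggressive AML replicate 2 or 3.

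**Figure D3:**
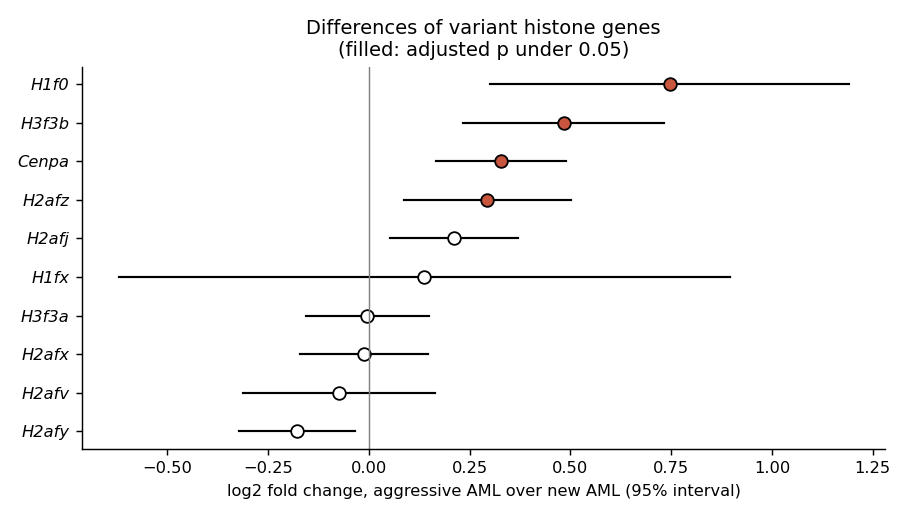
Log2 fold change of aggressive AML over new AML (horizontal axis) for the 10 variant histone genes, with the 95% interval of the edgeR fit. Filled points are the 4 genes called, and the intervals of H3f3a, H2afx, H2afv and H1fx include 0.

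H2afy (chromosome 13, 56073622 to 56135626), listed today as Macroh2a1 and the gene of macroH2A, was the only gene of the 10 with every aggressive AML library below the new AML range. It measured 2223.5, 2080.7, 1966.8 and 1966.0 CPM in new AML and 1889.6, 1828.9, 1809.2 and 1754.4 CPM in aggressive AML. The log2 fold change of -0.18 (SE 0.07, 95% interval -0.32 to -0.03) did not pass the edgeR test (adjusted p = 0.0795, unadjusted p = 0.0187), and DESeq2 was the only setting that called it (adjusted p = 0.0453). Its span overlaps that of Gm31485, and the strand setting of the counting is not given, so reads of that gene cannot be told apart.

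H2afj (chromosome 6, 136808248 to 136810074), listed today as H2aj, encodes a mammalian H2A variant that has been tied to senescent cells. It measured 262.4, 222.6, 242.9 and 229.0 CPM in new AML and 293.8, 265.1, 285.8 and 263.2 CPM in aggressive AML. The groups were separate, by less than 1 CPM between new AML replicate 1 and aggressive AML replicate 4. The log2 fold change of 0.21 (SE 0.07, 95% interval 0.05 to 0.37) did not pass the edgeR test (adjusted p = 0.0622), and 4 of 16 settings called it, with adjusted p-values of 0.0371 to 0.193 in all.

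H2afx (chromosome 9, 44334715 to 44336077), listed today as H2ax, measured 325.3, 327.0, 320.5 and 309.8 CPM in new AML and 327.7, 276.9, 337.9 and 329.6 CPM in aggressive AML. Its libraries overlapped, with aggressive AML replicate 2 below all others and the other 3 above the new AML range. The 95% interval of the log2 fold change was -0.17 to 0.15 (edgeR adjusted p = 0.931). Sequencing followed a poly(A) selection, so an H2afx mRNA that ends in the stem-loop shown above would be counted less than a polyadenylated one.

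Of 21 tested partners of H2AX in the response to DNA breaks (23 listed), 0 were higher and 4 were lower, a share of 19.0% beside 18.4% of all genes, with a median log2 fold change of -0.06. Mdc1, which binds phosphorylated H2AX, fell from 153.8 ± 14.4 to 110.8 ± 11.3 CPM (log2 fold change -0.47, adjusted p = 0.00240). Atm, a kinase that phosphorylates H2AX, fell from 97.9 ± 8.08 to 72.1 ± 9.52 CPM (-0.44, adjusted p = 0.00671), and Prkdc, another such kinase, from 96.5 ± 9.08 to 73.0 ± 6.35 CPM (-0.40, adjusted p = 0.00689). Brca1, a repair protein recruited to these sites, fell from 86.1 ± 2.90 to 69.5 ± 6.50 CPM (-0.31, adjusted p = 0.0203). The call of Brca1 was lost without new AML replicate 4 (edgeR adjusted p = 0.0512). Trp53bp1, which binds nearby chromatin, measured 73.2 ± 4.60 and 71.3 ± 4.89 CPM (adjusted p = 0.795). Mre11a, a nuclease of the break sensor complex, measured 74.8 ± 5.02 and 86.8 ± 3.86 CPM (adjusted p = 0.0753) and was called higher without new AML replicate 3, where the list had 5 calls.

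Other proteins that bind histones or linker DNA were examined as a list of 18, of which 17 were tested. In it 3 were higher and 0 lower, a share of 17.6% beside 18.4% of all genes, with a median log2 fold change of 0.08. These were Hmgn1, a nucleosome-binding protein (96.5 ± 12.5 to 128.8 ± 12.8 CPM, adjusted p = 0.0102), Hmga1, which binds AT-rich DNA (550.5 ± 81.6 to 697.0 ± 31.8 CPM, adjusted p = 0.0198), and Npm1, a histone chaperone of the nucleolus (300.8 ± 41.9 to 365.0 ± 13.8 CPM, adjusted p = 0.0408). The call of Npm1 was lost in 6 of the 8 fits that left out 1 library, and that of Hmga1 without new AML replicate 4. In the list of 20 genes for assembly of chromatin during replication, 1 was higher and 0 lower, a share of 5.0%. The median log2 fold change was -0.06. Chaf1b, a subunit of the chaperone CAF-1, rose from 46.4 ± 6.47 to 59.6 ± 8.44 CPM (adjusted p = 0.0494), and this call was lost in 6 of the 8 fits that left out 1 library.

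Canonical histone genes were set beside the variants. Of 60 tested, 16 were higher and 0 lower (26.7%), beside 18.4% of all genes called, 8.15% higher and 10.2% lower. The median log2 fold change was 0.60, with 58 of 60 above 0. Hist1h2ap rose from 6.56 ± 1.41 to 14.2 ± 2.51 CPM (adjusted p = 0.00118), Hist1h2bj from 6.76 ± 2.06 to 12.6 ± 1.85 CPM (adjusted p = 0.00732), Hist1h2bc from 16.0 ± 1.16 to 25.98 ± 6.63 CPM (adjusted p = 0.00856) and Hist1h2ao from 7.45 ± 2.85 to 14.9 ± 3.66 CPM (adjusted p = 0.0111). These genes are near copies that can share reads, and most of their mRNA has no poly(A) tail to be selected by. The count was 6 without new AML replicate 1 or 4 and 10 without aggressive AML replicate 2. Summed, the 60 genes gave 207 to 376 CPM in new AML and 346 to 499 CPM in aggressive AML, against 3977 to 4283 and 3975 to 4768 CPM for the 10 variant genes. At an unadjusted p under 0.05, which 32.6% of all tested genes reached, 28 of these 60 genes passed, beside 4 of 9 for H3.3 deposition, 3 of 29 for H2A.Z exchange, 3 of 21 for CENP-A loading, 7 of 21 for H2AX partners, 5 of 17 for other partners, 4 of 20 for assembly and 4 of 29 for proliferation.

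**Figure D4:**
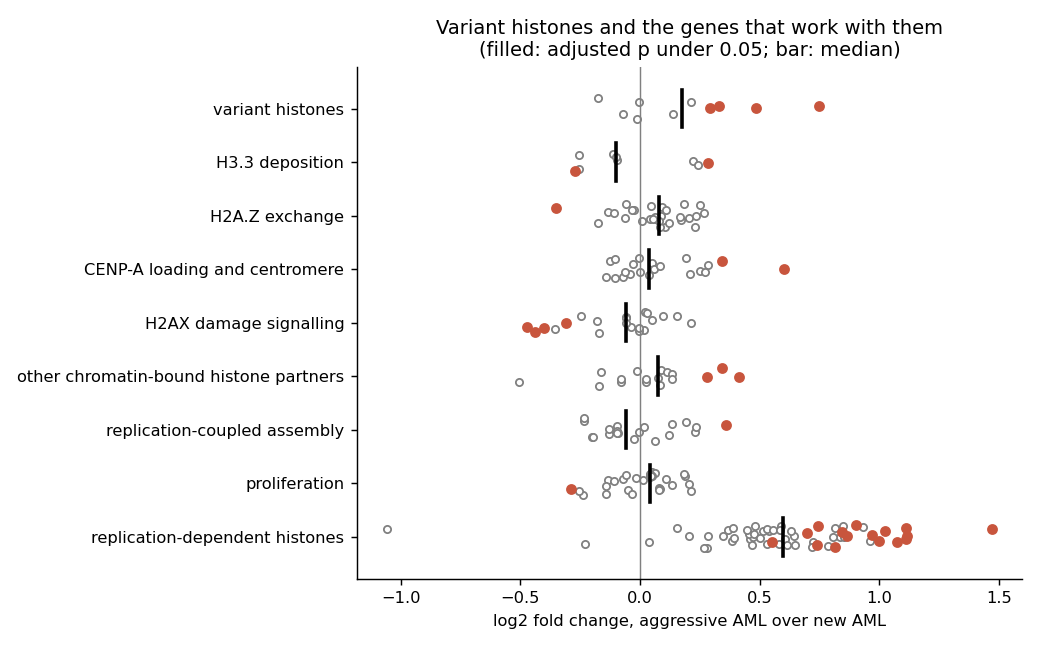
Log2 fold change of aggressive AML over new AML (horizontal axis) of each tested gene in the variant histones and 8 other lists. Filled points are called, open points are not, and the vertical bar is the list median, which was 0.17 for the variants and 0.60 for the replication-dependent, or canonical, histones.

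Levels of single genes were ordered as CPM per kilobase of mean GENCODE transcript length. In new AML the order was H2afy (1408), H3f3b (438), H3f3a (419.6), H2afx (232), H2afz (204), H2afj (199), Cenpa (113), H2afv (81.2), H1f0 (38.2) and H1fx (2.02). The ranges of H3f3b and H3f3a, of H2afx and H2afz, and of H2afz and H2afj overlapped over the 4 libraries, so these neighbours did not differ beyond their spread. In aggressive AML, H2afy was at 1244 and H3f3b at 613, and the H3f3b range did not overlap that of H3f3a, at 418. There H2afz (251), H2afj (230.03) and H2afx (229.8) overlapped in sequence, as did H2afv (77.2) and H1f0 (64.1). With the longest transcript as length, H2afy had the highest mean, H3f3b the next and H1fx the lowest, while the order between them changed. By that length H2afy and H3f3b overlapped in aggressive AML (453 and 375), and H3f3b and H3f3a did not overlap in new AML either (268 and 138).

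**Figure D5:**
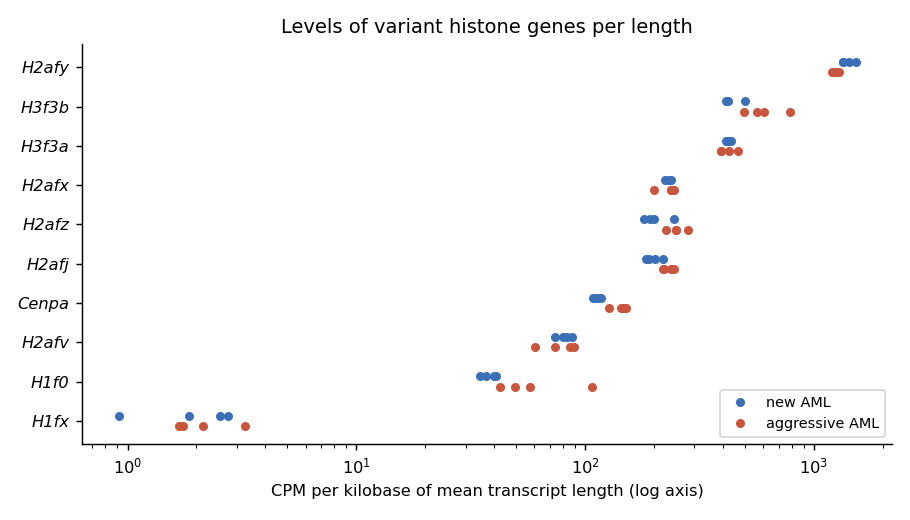
Level of each of the 10 genes in CPM per kilobase of mean transcript length (horizontal log axis) in 4 new AML (blue) and 4 aggressive AML (red) libraries. H2afy lay highest, H1fx lowest at 2.11 on average over the 8 libraries, and by this length the points of H3f3b and H3f3a overlapped in new AML and not in aggressive AML.

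Libraries of a group differed in a way that ran through several variants. Aggressive AML replicate 3 was the highest of its group in 7 of the 10 genes and the lowest in 0, and aggressive AML replicate 4 was the lowest in 6. Over the whole table, aggressive AML replicate 3 also differed most from its group. Its pairs had a chi-square per degree of freedom of 10.5 to 10.9, the other pairs of that group 4.57 to 6.93. The share of all genes highest in that library was not counted, so this is not shown to be particular to the variants. New AML replicate 3 was the highest of its group in H1f0, H2afz, H3f3b and Cenpa, which are the 4 genes called. Over the whole table its pairs had a chi-square per degree of freedom of 7.30 to 10.3, the other pairs of that group 4.04 to 9.13. The share of all genes, or of all called genes, highest in new AML replicate 3 was not counted either. As deviations from the group means over the 8 libraries, Pearson r was taken for all pairs of the 10 genes, and the strongest are given. H2afx and Cenpa had 0.91, H1f0 and H3f3b 0.88, and H1f0 and H3f3a 0.85. H3f3b had 0.83 with both H2afz and H3f3a, and H1fx and H2afz had -0.84. Aggressive AML replicate 3 was the highest of its group in H1f0, H2afz, H3f3a and H3f3b. Aggressive AML replicate 2 was the lowest in H2afx and Cenpa, so single libraries weigh in these values. These values describe 8 libraries that share a depth and a scaling across genes, and with few counts for H1fx its value is weak.

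The search for genes of similar course covered 9289 genes with a mean of at least 10 CPM, the called variants among them. For each called variant, the other genes whose log2(CPM + 1) followed it most closely over the 8 libraries were found by Pearson r. H3f3b was followed by Hnrnpa1 (r = 0.986), Rabl3 (0.983) and Faf1 (0.974). H1f0 was followed by Fam60a (0.989), Rbm15 (0.974) and Smc5 (0.971), and H2afz by Acp1 (0.984), Pmpca (0.980) and Hdac6 (0.980). Cenpa was followed by Gng12 (0.969), Nrg2 (0.967) and Snhg3 (0.966). Both the group difference and the spread within groups enter these values, which are the highest of many.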

How the data were processed

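GFP+ cells were sorted from bone marrow and poly(A) RNA was sequenced from both ends. The authors aligned reads to mm10 (GRCm38) with HISAT2, used Rsubread to count them per gene, and dropped genes under 1 CPM. The gene annotation and strand setting are not given in the sources used here. The deposited values are whole read counts that add up to a different total per library, although the table is named for CPM, and were used as counts.

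Counts were scaled by TMM (factors 0.986 to 1.01) and tested with edgeR 4.0.16 in R 4.3.3 (glmQLFit, glmQLFTest, two-sided, group alone) for the 12494 genes that reached 1 CPM in 4 or more libraries, leaving out 329 rows. This replaced the study's limma test, which was run as an alternative (limma 3.58.1), as was DESeq2 1.42.0. The 95% intervals came from the fold change and its error. Library totals were 7805544 to 9697777 counts and the common biological coefficient of variation was 0.118. On simulated counts for 12494 genes, 42 of 100 genes changed by 0.5 and 92 of 100 changed by 1 on the log2 scale were called, with 8 false calls. The simulation gave all genes 1 common spread and changed 200 of them, while 2296 genes were called in the data. Its rates therefore do not carry over to these data. Libraries within a group differed by more than sampling noise (chi-square per degree of freedom 4.04 to 10.9).

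Log2 ratios used CPM + 1 and an exact permutation test over 70 choices of libraries. The proliferation reference was the average of log2(CPM + 1) over its tested genes. The members and lists were chosen with earlier results of these data known. All members were named, with at most 4 called genes per list and direction and the 3 closest genes to each called member. Other genes, such as uncalled chaperones and the Y-linked genes, were named after their values were seen. Promoters and coordinates were from RefSeq (GRCm38.p6), transcripts from GENCODE M21. Same-numbered replicates did not deviate together (r = 0.0967, -0.0399, -0.0654 and 0.204), so numbers were not treated as pairs.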

Additional observations from a re-analysis of the deposited data

Results flagged for a closer look

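In each group of 4 libraries, the gap of the highest or lowest library to its neighbour was compared with the range of the group (Dixon's test at 95%) for the variant genes and ratios. Of 28 groups checked, 2 passed, where chance passes about 1 in 20. H2afx measured 276.9 CPM in aggressive AML replicate 2, with the other libraries of that group between 327.7 and 337.9 CPM. H3f3b measured 771.4 CPM in new AML replicate 3, with the other libraries of that group between 636.9 and 648.6 CPM. The cause was not tested for either value.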

How the results depend on the processing

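Limits: the groups are described as stages of 1 leukemia, which the Y-linked genes leave in doubt, libraries of a group are not shown to be separate leukemias, and H1fx had at most 35 counts per library. Transcript lengths are averages over annotated transcripts.

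Over 16 alternatives, 12 values of the variant genes turned sign, all of them in genes not called. The log2 fold change of H3f3a was 0.0018 with RLE size factors, 0.014 with upper quartile scaling, 0.0013 for genes with a mean of at least 10 CPM, 0.0017 in DESeq2, 0.011 without new AML replicate 4, and 0.024 and 0.031 without aggressive AML replicates 2 and 4. H2afx was 0.0064 with upper quartile scaling and 0.049 without aggressive AML replicate 2, and H2afv was 0.029 without that library. With single libraries left out, the ranges were -0.055 to 0.031 for H3f3a, -0.040 to 0.049 for H2afx and -0.15 to 0.03 for H2afv. H1fx was -0.10 without new AML replicate 3 and -0.11 without aggressive AML replicate 4, and the filter at a mean of 10 CPM gave it no value. H3f3b and Cenpa were called in 16 of 16 settings, H1f0 in 13, H2afz in 10, H2afj in 4 and H2afy in 1.

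Of the variant genes, 2 to 4 were called when single libraries were left out (2 without new AML replicate 2), and 1534 to 2381 of all genes. List counts were then 0 to 3 for H3.3 deposition, 0 to 2 for H2A.Z exchange, 1 to 3 for CENP-A loading, 4 to 5 for H2AX signalling, 1 to 3 for other partners, 0 to 2 for replication-coupled assembly, 0 to 3 for proliferation and 6 to 22 for canonical histones. The log2 ratios differed by 0.40 to 0.54 for H3f3b, 0.27 to 0.47 for H2afz, 0.25 to 0.85 for H1f0 and 0.29 to 0.36 for Cenpa. The assembly list gave 2 calls with upper quartile scaling and in DESeq2 and 0 with a mean of at least 10 CPM and in limma voom. The proliferation list gave 3 calls in DESeq2, and the canonical histones 6 of 9 tested at a mean of at least 10 CPM, where fewer genes were tested. The cause was not tested for the other counts.

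Same numbers do not pair these libraries. With the replicate number as a block, 2367 genes and 5 variant genes were called, H2afj added (adjusted p = 0.0408). The ratios of H3f3b (0.47) and Cenpa (0.32) then had an exact permutation p of 0.125, the smallest that 16 sign changes allow. With the longest transcript as length, levels in CPM per kilobase were 482.8 for H2afy, 321.5 for H3f3b, 137.6 for H3f3a, 145.3 for H2afz, 141 for H2afj, 52.2 for H2afv and 40.04 for Cenpa.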
